A study of Mus musculus with 6 samples.

Results

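The IL-6 family signals through receptors that share the chain gp130. The 10 genes described here were taken by name from the probes of the array: the ligands Il6, Il11, Lif, Ctf1 and Clcf1, and the receptor chains Il6ra, Il6st, Il11ra1, Lifr and Osmr. They are 10 of the 34797 gene names and were read by 12 of the 55681 probes. The family was chosen by its readout, because Lifr was seen to be higher in TIAR KO cells, so the Lifr values and all member values of the TIAR KO and WT contrast are given as a description, with no p-value, and nothing is read from their calls.

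RNA of immortalized mouse embryonic fibroblasts (MEF) was hybridized to 6 one-colour arrays, with 2 independent samples for each group, namely WT MEF and MEF lacking TIA1 (TIA1 KO) or TIAR (TIAR KO). TIA1 and TIAR are related RNA-binding proteins, and their loss was compared with WT MEF and with each other. The labels give the strain W4 for the WT MEF, BALB/c for the TIA1 knock-out and C57BL/6 for the TIAR knock-out, and these labels mean that a genotype cannot be told apart from its strain or line. No treatment, sex or age is given in the labels, and the number of lines behind each group is not given in the sources used here. All arrays lay on 1 slide, where the TIA1 KO samples had a row of their own that cannot be told apart from the genotype. By the scanner software, probes well above background numbered 23531 and 26254 in the WT samples. The numbers were 16000 and 19920 for TIA1 KO and 24754 and 25985 for TIAR KO. TIA1 KO replicate 1 stood apart with a median intensity of 458, against 218 for replicate 2. The medians were 152 and 140 in WT and 136 and 119 in TIAR KO. The standard deviation between arrays was 0.44 in TIA1 KO, 0.27 in WT and 0.29 in TIAR KO.

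IL-6 family cytokines bind a private receptor chain and then bring gp130, encoded by Il6st, into the complex. IL-6 and IL-11 use gp130 pairs, whereas LIF, cardiotrophin 1 and CLCF1 use gp130 with the LIF receptor, and oncostatin M uses gp130 with its own receptor chain or with the LIF receptor. The receptors activate JAK kinases, which phosphorylate STAT3, and STAT3 raises transcription of its own inhibitor Socs3. In fibroblasts the family is known for inflammatory and matrix responses.

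The proximal promoters of Lifr, Osmr and Il6 are shown as a description. These 3 members were picked by their values in the TIAR KO and WT contrast, which led to the choice of the family. Nothing is therefore read from this pick. The sequences are the 250 bases before each transcript start in RefSeq (GRCm38.p6), 5′ to 3′ on the strand of the gene. Lifr has 2 starts in that table, at chr15:7129322-7129571 and chr15:7140292-7140541, both on the plus strand. The Osmr promoter is chr15:6874314-6874563 on the minus strand and that of Il6 is chr5:30012864-30013113 on the plus strand. Capitals mark matches on either strand to TTCNNNGAA (STAT), GGGNN followed by TTTCC (NF-kB), TTNNGNAAT (C/EBP), TGANTCA (AP-1) or GGGCGG (Sp1), of which no pair overlapped in these promoters.
Lifr start 1: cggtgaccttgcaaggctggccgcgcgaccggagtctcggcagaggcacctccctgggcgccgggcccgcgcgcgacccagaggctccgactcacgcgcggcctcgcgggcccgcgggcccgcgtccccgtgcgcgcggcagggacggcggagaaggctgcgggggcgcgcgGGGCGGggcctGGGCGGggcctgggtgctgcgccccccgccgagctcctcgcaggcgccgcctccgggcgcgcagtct
Lifr start 2: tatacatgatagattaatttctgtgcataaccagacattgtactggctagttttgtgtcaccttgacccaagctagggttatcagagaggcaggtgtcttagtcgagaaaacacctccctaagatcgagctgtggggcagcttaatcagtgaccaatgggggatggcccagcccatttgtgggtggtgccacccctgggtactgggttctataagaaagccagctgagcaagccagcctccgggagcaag
Osmr: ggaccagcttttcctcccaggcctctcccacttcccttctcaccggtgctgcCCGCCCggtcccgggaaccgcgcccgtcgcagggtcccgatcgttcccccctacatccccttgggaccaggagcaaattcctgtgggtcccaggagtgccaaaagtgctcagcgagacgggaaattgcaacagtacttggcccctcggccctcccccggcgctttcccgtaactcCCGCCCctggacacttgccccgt
Il6: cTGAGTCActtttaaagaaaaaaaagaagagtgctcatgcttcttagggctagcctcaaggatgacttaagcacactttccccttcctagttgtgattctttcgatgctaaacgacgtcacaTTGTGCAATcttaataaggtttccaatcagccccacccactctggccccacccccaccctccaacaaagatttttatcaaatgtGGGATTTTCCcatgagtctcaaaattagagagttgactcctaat
The first Lifr promoter and the Osmr promoter each held 2 Sp1 matches, and their GC content was 82.4% and 66%, beside a median of 52.4% over 32841 promoters. The second Lifr promoter had a GC content of 50.8% and no match to the 5 motifs. The Il6 promoter held 1 match each to the NF-kB, C/EBP and AP-1 motifs. Over all promoters of this length, 32.7% held an Sp1 match, 1.41% an NF-kB match, 10.2% a C/EBP match, 6.75% an AP-1 match and 7.02% a STAT match. A match is a description of the letters and says nothing of binding. Of the 10 members, 9 had a promoter in the table.

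On the log2 scale of normalized intensity, Tia1 read 7.87 and 8.44 in TIA1 KO MEF at its brightest probe, against 10.72 and 8.54 in WT MEF, a difference of −1.47 ± 0.79 (standard error, as for all following values; n = 2 arrays per group; limma adjusted p = 0.288). For TIAR, the second Tial1 probe fell from 11.71 and 11.09 in WT MEF to 10.00 and 9.65 with TIAR lost, by −1.58 ± 0.26 (limma adjusted p = 0.0254). At the brightest Tial1 probe the difference was −2.63 ± 0.87 (limma adjusted p = 0.200), with WT replicate 1 left out because its spot was marked as an outlier. A second Tia1 probe read 9.56 and 9.90 in WT and 7.57 and 8.65 in TIA1 KO MEF, without overlap, a difference of −1.62 ± 0.42 (limma adjusted p = 0.116), and the last differed by 0.87 ± 0.28 (limma adjusted p = 0.149) and was not well above background on either WT array. No Tia1 probe was thus called in TIA1 KO MEF, whereas 1 Tial1 probe was called lower in TIAR KO MEF. Whether these probes lie in the deleted parts of the genes is not given in the sources used here.

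Calls required a limma p under 0.05 after Benjamini-Hochberg adjustment over all probes and a change above 2-fold, and a gene was read from its brightest probe. In TIA1 KO against WT MEF, 2 of the 10 members were called higher, Lifr and Osmr, where 2.88% of all genes were called higher and 1.63% lower. In TIAR KO against WT MEF, Lifr, Osmr and Il6 were called higher, 3 of 10, where 4.36% of all genes were called higher and 2.82% lower. In TIAR KO against TIA1 KO MEF, Lifr and Il6 were called higher and Il11 lower, where 2.06% of all genes were called higher and 2.12% lower. Lifr and the TIAR KO and WT contrast led to the choice of the family, so nothing is read from counts that hold Lifr or from calls of members in that contrast. Each of the 10 members was well above background on every array of 1 group or more. Among all such genes, which differ by comparison, the share called in either direction was 8.27%, 13.7% and 7.84% for the 3 comparisons in the same order. The median log2 fold change of the 10 members was 0.46, 0.57 and 0.62, beside −0.07, −0.01 and 0.04 over all genes. Over the genes well above background it was −0.21, −0.03 and 0.20. The member medians include Lifr, so they are given as a description and nothing is read from them. The comparisons share arrays, so their values are set side by side only. All p-values rest on the spread between 2 arrays per group. Scaled to a common median, which shifted the median of all probes by −0.67, −0.02 and 0.63 in the 3 comparisons, the members called were 1 higher and 3 lower in TIA1 KO, 3 higher and 1 lower in TIAR KO, and 7 higher and 0 lower between the knockouts.

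**Figure D1:**
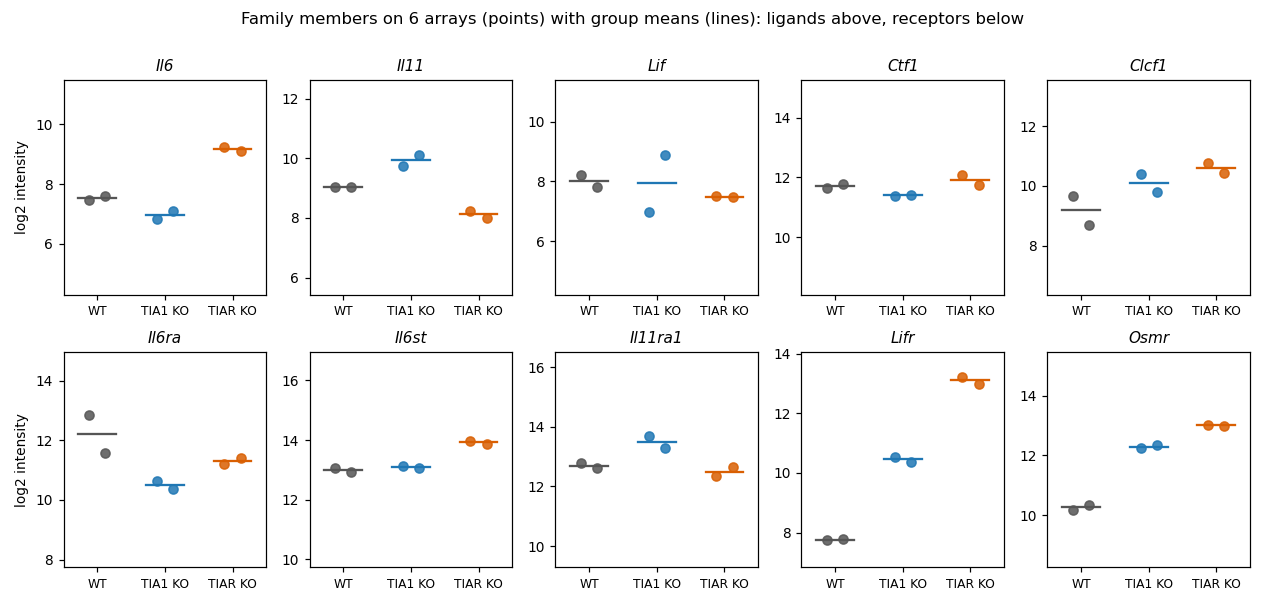
Normalized log2 intensity of each family member (y axis) on the 6 arrays, by group (x axis), with 1 point per array and a line at the group mean. Each panel spans the same log2 range, and levels cannot be compared between panels because each is 1 probe. Lifr lies at 7.77 in WT, near 10.5 in TIA1 KO and near 13.1 in TIAR KO MEF, and Osmr lies above its WT values in both knockouts.

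Lifr encodes the signalling chain for LIF and pairs with gp130. Its brightest probe lies on chromosome 15 from 7147319 to 7147378 in mm9. WT arrays read 7.77 and 7.77 there, TIA1 KO arrays 10.54 and 10.38, and TIAR KO arrays 13.23 and 12.97. The 3 groups did not overlap, in the order WT, TIA1 KO, TIAR KO. The log2 fold change was 2.69 ± 0.16 in TIA1 KO against WT MEF (6.46-fold), 5.33 ± 0.16 in TIAR KO against WT MEF (40.3-fold) and 2.64 ± 0.18 in TIAR KO against TIA1 KO MEF (6.24-fold). Under 14 alternatives the values ranged from 1.54 to 3.56, from 3.94 to 6.43 and from 2.07 to 3.64. In the authors' log2 table, whose values led to the choice of this family, the same probe differed by 2.41, 5.03 and 2.62.

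Both other Lifr probes lay in the same order. The probe at 7135072 to 7135131, designed on another RefSeq transcript record than the first, read 7.02 and 6.99 in WT, 8.87 and 9.44 in TIA1 KO and 10.90 and 10.88 in TIAR KO MEF. The probe at 7141150 to 7141209 read 7.38 and 7.36 in WT, 7.81 and 8.45 in TIA1 KO and 10.21 and 9.74 in TIAR KO MEF. In WT MEF both were well above background on 1 of 2 arrays. Their log2 fold changes were 2.15 and 0.76 in TIA1 KO and 3.89 and 2.61 in TIAR KO MEF. The size of the difference thus depended on the probe, from 6.09-fold to 40.3-fold in TIAR KO MEF, and the third probe was not called in TIA1 KO MEF. Exons and UTRs of mm9 were not used here, so the place of each probe in the transcript is given by position only.

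Osmr encodes a signalling chain that pairs with gp130 for oncostatin M and with the product of Il31ra for IL-31. Its probe (chromosome 15, 6763686 to 6763745) read 10.19 and 10.34 in WT, 12.25 and 12.34 in TIA1 KO and 13.03 and 13.00 in TIAR KO MEF. The 3 groups did not overlap. Osmr rose by 2.03 ± 0.16 on the log2 scale in TIA1 KO MEF (4.08-fold; limma adjusted p = 0.0155) and was higher by 2.75 ± 0.15 in TIAR KO MEF (6.74-fold). The difference between the knockouts, 0.72 ± 0.15 with TIAR KO higher, did not pass the threshold (limma adjusted p = 0.103). This difference ranged from 0.68 to 1.82 and was called under 1 of 14 alternatives. When 1 array of a group was left out, the spread came from the other group alone and the remaining array was assumed to vary like it. Without either WT array no probe was called in TIA1 KO MEF, so a call lost there says nothing of the gene: the Osmr log2 fold change was 1.95 without replicate 1 (limma adjusted p = 0.276) and 2.11 without replicate 2 (limma adjusted p = 0.272). With common-median scaling Osmr was higher by 0.53 in TIA1 KO MEF (limma adjusted p = 0.376), and the call was also lost with processed intensities (1.99, limma adjusted p = 0.0750) and with a replicate block (2.03, limma adjusted p = 0.0507), so that it was made under 9 of 14 alternatives.

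Il6st encodes gp130 itself. It read 13.06 and 12.93 in WT, 13.14 and 13.08 in TIA1 KO and 13.97 and 13.87 in TIAR KO MEF. Both TIAR KO arrays lay above the other 4. Its log2 fold change was 0.93 ± 0.15 in TIAR KO MEF (1.90-fold, below the 2-fold limit), 0.12 ± 0.15 in TIA1 KO MEF (limma adjusted p = 0.629) and 0.81 ± 0.15 between the knockouts (limma adjusted p = 0.0856). Scaled to a common median, the TIA1 KO value turned to −1.48 and was called.

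Il6ra, the private chain for IL-6, read 12.86 and 11.58 in WT, 10.65 and 10.35 in TIA1 KO and 11.21 and 11.42 in TIAR KO MEF. The WT arrays were both above all KO arrays but differed from each other by more than WT replicate 2 differed from the TIAR KO arrays. Relative to WT it was −1.72 ± 0.47 on the log2 scale in TIA1 KO MEF (limma adjusted p = 0.125), −0.91 ± 0.42 in TIAR KO MEF and 0.82 ± 0.19 between the knockouts (limma adjusted p = 0.122). On common-median scaling Il6ra was called in TIA1 KO MEF, at −3.21. Il11ra1, the private chain for IL-11, read 12.78 and 12.62 in WT, 13.69 and 13.30 in TIA1 KO and 12.35 and 12.64 in TIAR KO MEF. It differed by 0.79 ± 0.21 in TIA1 KO MEF (limma adjusted p = 0.117), −0.21 ± 0.17 in TIAR KO MEF and −1.0 ± 0.22 between the knockouts (limma adjusted p = 0.112). On common-median scaling the TIA1 KO value turned to −0.79, and without TIA1 KO replicate 2 the difference between the knockouts was called, at −1.20 (limma adjusted p = 0.0228). The Il11ra1 values are uncertain because the accessions listed for the probe also match Gm13305. In mm9 these receptor probes lie at chr13:113296586-113296645 (Il6st), chr3:89674054-89674113 (Il6ra) and chr4:41716285-41716344 (Il11ra1).

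**Figure D2:**
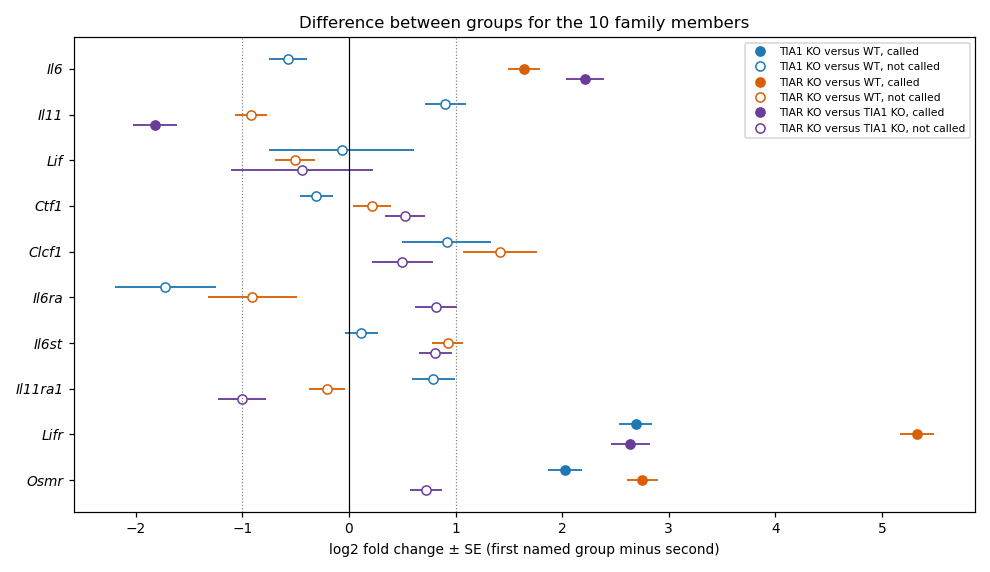
Log2 fold change with its standard error (x axis) of the 10 members (y axis) in the 3 comparisons, from 2 arrays per group. Filled points were called and open points were not, and dotted lines mark a 2-fold change. Lifr reaches 5.33 in TIAR KO against WT MEF, and Il11 lies at 0.90 for TIA1 KO and at −0.92 for TIAR KO against WT MEF.

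Among the ligands, Il6, the founding cytokine of the family, read 7.47 and 7.61 in WT, 6.84 and 7.10 in TIA1 KO and 9.25 and 9.11 in TIAR KO MEF. Both TIAR KO arrays lay above the other 4, and the probe was well above background on 1 of 2 WT arrays and on neither TIA1 KO array. The log2 fold change was 1.64 ± 0.15 in TIAR KO against WT MEF (3.12-fold) and −0.57 ± 0.18 in TIA1 KO MEF (limma adjusted p = 0.145), where it turned to 0.68 with processed intensities. For TIAR KO against WT MEF, Il6 ranged from 1.57 to 3.21 under 14 alternatives. Against TIA1 KO MEF, Il6 was at least 3.07-fold higher in TIAR KO MEF (log2 fold change 2.21 ± 0.18; limma adjusted p = 0.0172). That call was made under 10 of 14 alternatives, and was lost with processed intensities and with a replicate block. For this lower limit, Il6 on a TIA1 KO array was taken as the dimmest signal still rated well above background there, or as its own signal if brighter.

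Il11, a cytokine that signals through gp130 pairs, read 9.03 and 9.04 in WT, 9.75 and 10.12 in TIA1 KO and 8.23 and 8.01 in TIAR KO MEF. The groups did not overlap, with TIA1 KO above WT and TIAR KO below. Between the knockouts Il11 was lower in TIAR KO MEF by 3.54-fold (log2 fold change −1.82 ± 0.21; limma adjusted p = 0.0344), a call made under 7 of 14 alternatives. It differed from WT by 0.90 ± 0.19 in TIA1 KO MEF (limma adjusted p = 0.0927) and by −0.92 ± 0.15 in TIAR KO MEF, each less than 2-fold. Under 14 alternatives the TIA1 KO value ranged from 0.02 to 1.49 and the TIAR KO value from −1.37 to −0.81. Without TIAR KO replicate 1 or 2, no probe of the array was called between the knockouts: Il11 then differed by −1.93 (limma adjusted p = 0.299) and −1.71 (limma adjusted p = 0.328), and Il6 by 2.14 (limma adjusted p = 0.267) and 2.28 (limma adjusted p = 0.252).

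Lif, the ligand of the Lifr chain, read 8.20 and 7.80 in WT, 6.98 and 8.88 in TIA1 KO and 7.50 and 7.48 in TIAR KO MEF. The TIA1 KO arrays spanned all other values. Lif differed from WT by −0.07 ± 0.68 in TIA1 KO MEF (limma adjusted p = 0.953), −0.51 ± 0.18 in TIAR KO MEF and −0.44 ± 0.67 between the knockouts (limma adjusted p = 0.704). Its TIA1 KO value ranged from −1.02 to 1.63 and kept its sign under 9 of 14 alternatives. In the comparisons with TIA1 KO MEF, a difference was not detectable with these errors. Between the knockouts Lif differed by −1.39 without TIA1 KO replicate 1 (limma adjusted p = 0.0262) and by 0.51 without replicate 2 (limma adjusted p = 0.125). Ctf1, which encodes cardiotrophin 1, was read by 10 spots and lay between 11.37 and 12.08 on all arrays. It differed by −0.31 ± 0.15 in TIA1 KO MEF (limma adjusted p = 0.266), by 0.22 ± 0.17 in TIAR KO MEF and by 0.52 ± 0.19 between the knockouts (limma adjusted p = 0.210). On common-median scaling Ctf1 was called in TIA1 KO MEF, at −1.82. Clcf1, a further ligand of gp130 and Lifr, read 9.67 and 8.69 in WT, 10.40 and 9.79 in TIA1 KO and 10.77 and 10.42 in TIAR KO MEF. All KO arrays lay above the WT arrays, with log2 fold changes of 0.92 ± 0.42 (limma adjusted p = 0.239) and 1.42 ± 0.35, and 0.50 ± 0.28 between the knockouts (limma adjusted p = 0.354). Clcf1 in TIA1 KO MEF kept its sign under 13 of 14 alternatives and turned to −0.24 under the other. In mm9 the ligand probes lie at chr5:30346367-30346426 (Il6), chr7:4724847-4724906 (Il11), chr11:4172032-4172091 (Lif), chr7:134861581-134861640 (Ctf1) and chr19:4222480-4222539 (Clcf1).

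Of 46 other genes of the pathway, 1 was called in TIA1 KO MEF (lower), 5 in TIAR KO MEF (4 higher, 1 lower) and 3 between the knockouts (2 higher and 1 lower in TIAR KO). These shares of 2.17%, 10.9% and 6.52% stand beside 4.51%, 7.18% and 4.18% of all genes called in either direction. Of the genes well above background, 8.27%, 13.7% and 7.84% were called. Their median log2 fold change was −0.18, −0.02 and 0.14, and 7 of the 46 were not well above background on any array. Scaled to a common median, the called genes were 0 higher and 22 lower in TIA1 KO, 3 higher and 5 lower in TIAR KO, and 12 higher and 0 lower between the knockouts. The shares above belong to the main fit, so nothing about the pathway is read from these counts.

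**Figure D3:**
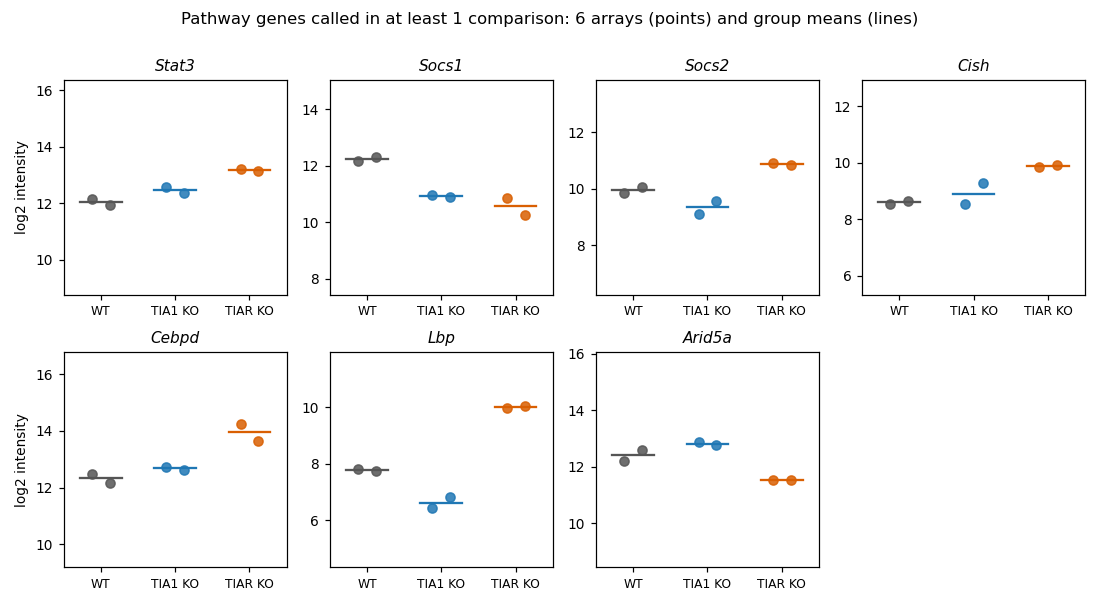
Normalized log2 intensity (y axis) of the 7 other pathway genes called in at least 1 comparison, by group (x axis), with 1 point per array and a line at the group mean. Socs1 is lower on all KO arrays than on the WT arrays, and Stat3 and Lbp are highest on both TIAR KO arrays.

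Of 9 other ligands and receptors of the family, Osm, Ebi3, Il31, Il27ra and Il31ra were not well above background on any array, among them Osm and Il31, both ligands of receptors that hold the Osmr chain. Limma called none of the 9 in any comparison, and at an unadjusted p under 0.05 the list held 3, 0 and 2 genes in the 3 comparisons, where 29.2%, 23.1% and 24.7% of all genes had such a p. Its median log2 fold change was −0.39, 0.09 and 0.24.

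Of 11 signal transducers, 1 was called in TIAR KO MEF, namely Stat3. Beside this count stand 4.36% of all genes called higher there and 13.7% of those well above background called in either direction. Stat3, the main transcription factor downstream of gp130, read 12.17 and 11.95 in WT, 12.59 and 12.38 in TIA1 KO and 13.20 and 13.15 in TIAR KO MEF. The groups did not overlap, and Stat3 rose by 1.11 ± 0.15 in TIAR KO MEF (2.17-fold; limma adjusted p = 0.0146). A dimmer Stat3 probe, well above background on 1 of 2 WT arrays, differed by 0.07 (limma adjusted p = 0.850). Without WT replicate 2 or either TIAR KO array the call was lost (1.01, 1.09 and 1.14; limma adjusted p = 0.0620, 0.0766 and 0.0730), and with all arrays the difference was 0.93 with processed intensities, 0.67 on common-median scaling and 0.59 as the mean of both probes. Jak1, a kinase bound to gp130, differed by 0.31 ± 0.15 in TIA1 KO (limma adjusted p = 0.257) and 0.13 ± 0.23 in TIAR KO MEF (limma adjusted p = 0.835). In TIA1 KO MEF none of the 11 was called by limma and 2 had an unadjusted p under 0.05, and between the knockouts these counts were 0 and 3, beside 29.2% and 24.7% of all genes with such a p.

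Limma called 1 of 8 inhibitors in TIA1 KO, 2 in TIAR KO and 1 between the knockouts. These counts stand beside 4.51%, 7.18% and 4.18% of all genes called in either direction, and 8.27%, 13.7% and 7.84% of those well above background. Socs1, which blocks JAK kinases, was lower in both knockouts. It read 12.16 and 12.31 in WT, 10.97 and 10.91 in TIA1 KO and 10.87 and 10.28 in TIAR KO MEF, so that every KO array lay below the WT arrays. Socs1 fell by 1.29 ± 0.16 in TIA1 KO (2.45-fold; limma adjusted p = 0.0372) and by 1.66 ± 0.23 in TIAR KO MEF (3.17-fold; limma adjusted p = 0.0154). The TIA1 KO call was lost without WT replicate 1 (−1.37, limma adjusted p = 0.323) or replicate 2 (−1.22, limma adjusted p = 0.333), in the authors' log2 table (−1.26, limma adjusted p = 0.0542), with offset 16 (−1.30, limma adjusted p = 0.0545), with processed intensities (−1.63, limma adjusted p = 0.0750) and with a replicate block (−1.29, limma adjusted p = 0.0943). In TIAR KO MEF it was lost without WT replicate 2 (−1.59, limma adjusted p = 0.0607) and with processed intensities (−1.98, limma adjusted p = 0.0689). Cish, a STAT5-induced inhibitor of the same family, read 8.54 and 8.65 in WT, 8.54 and 9.27 in TIA1 KO and 9.85 and 9.93 in TIAR KO MEF. It rose by 1.29 ± 0.14 in TIAR KO MEF (limma adjusted p = 0.00738), a call lost without TIAR KO replicate 2 (1.25, limma adjusted p = 0.0508), with processed intensities (1.56, limma adjusted p = 0.0527) and with all 3 groups fitted together (1.29, limma adjusted p = 0.0551). Socs3, the inhibitor that STAT3 induces and that binds gp130, read 10.32 and 11.64 in WT, 12.39 and 12.01 in TIA1 KO and 11.20 and 11.07 in TIAR KO MEF. The TIAR KO arrays lay within the WT spread, and the log2 fold change was 0.16 ± 0.43 (limma adjusted p = 0.901). In TIA1 KO MEF it was 1.22 ± 0.49 (limma adjusted p = 0.202), with the sign kept under 13 of 14 alternatives and −0.27 under the other. Socs2, another member of the family, differed between the knockouts, being higher in TIAR KO by 1.54 ± 0.22 (limma adjusted p = 0.0494), a call made under 6 of 14 alternatives. Its 3 dimmer probes were not called there, with differences of 1.24, 1.42 and −0.38. The brightest probe of Ptpn2, a phosphatase of JAK and STAT proteins, was not called, whereas a dimmer one fell by 1.28 ± 0.26 in TIAR KO MEF (limma adjusted p = 0.0490).

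Of 14 genes known as STAT3 targets, 2 were called in TIAR KO MEF, both higher, beside 4.36% of all genes called higher there and 13.7% of those well above background called in either direction. The list's median log2 fold change was −0.15. Cebpd, a transcription factor of the acute phase, read 12.47 and 12.18 in WT, 12.72 and 12.63 in TIA1 KO and 14.25 and 13.65 in TIAR KO MEF. It rose by 1.63 ± 0.25 in TIAR KO MEF (3.09-fold; limma adjusted p = 0.0197), a call lost without WT replicate 2 (1.48, limma adjusted p = 0.0726) and without TIAR KO replicate 1 (1.33, limma adjusted p = 0.0600). Lbp, an acute phase protein that binds lipopolysaccharide, read 7.83 and 7.75 in WT, 6.42 and 6.82 in TIA1 KO and 9.99 and 10.05 in TIAR KO MEF. At this brightest probe, Lbp rose by 2.23 ± 0.14 in TIAR KO MEF (4.69-fold; limma adjusted p = 0.0012). The same probe was at least 6.04-fold higher there than in TIA1 KO MEF, where it was not well above background (limma adjusted p = 0.0097). The Lbp call between the knockouts was made under 9 of 14 alternatives, and was lost with processed intensities and with a replicate block. As the mean of both probes, the difference between the knockouts was 1.51 (limma adjusted p = 0.102). A dimmer Lbp probe differed by 0.29 ± 0.14 in TIAR KO against WT MEF (limma adjusted p = 0.347). Between the knockouts it went the other way, at −0.38 ± 0.81 (limma adjusted p = 0.788). This probe read 9.31 and 6.99 in TIA1 KO and 7.74 and 7.81 in TIAR KO MEF, and was well above background on 1 TIA1 KO array. Cebpb and Myc, both transcription factors, and Lcn2, an iron-binding acute phase protein, passed the adjusted p but not the 2-fold limit in TIAR KO MEF, at −0.98, 0.75 and −0.70. In TIA1 KO MEF limma called none of the 14, and 6 had an unadjusted p under 0.05, beside 29.2% of all genes.

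Of 5 genes whose products act on Il6 mRNA, 1 was called between the knockouts. Beside this count stand 2.12% of all genes called lower there and 7.84% of those well above background called in either direction. Arid5a, whose product stabilizes that mRNA, was the gene called. It read 12.21 and 12.59 in WT, 12.86 and 12.77 in TIA1 KO and 11.53 and 11.51 in TIAR KO MEF. Arid5a was lower in TIAR KO than in TIA1 KO MEF by 2.46-fold (log2 fold change −1.30 ± 0.15; limma adjusted p = 0.0354), a call made under 7 of 14 alternatives, and the log2 fold change was −0.19 on common-median scaling. Against WT MEF limma called none of the 5 in either knockout, with 2 genes for TIA1 KO and 1 for TIAR KO at an unadjusted p under 0.05, beside 29.2% and 23.1% of all genes.

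Lifr and Osmr lie near each other on chromosome 15. A window of 1000 kb on either side of the brightest Lifr probe, chosen after the values were seen, held 9 other named genes well above background on at least 2 arrays. Osmr was 384 kb away, with Gm10050 as the only gene of the 9 between them. In TIA1 KO MEF, Osmr and Gdnf were called higher, 2 of 9. In TIAR KO MEF, Dab2 and Osmr were called higher and Gdnf and Wdr70 lower, 4 of 9. These counts include Osmr, itself a member of the family. They stand beside 4.51% and 7.18% of all genes called for TIA1 and TIAR loss, and 8.27% and 13.7% of those well above background. Nothing is read from this window. Gdnf, which encodes a neurotrophic factor, was higher by 2.11 ± 0.15 in TIA1 KO MEF (limma adjusted p = 0.0132) and lower in TIAR KO MEF, at −4.47 ± 0.14 (limma adjusted p = 0.00021). Rictor, next to Osmr, differed by 1.22 ± 0.19 in TIA1 KO MEF (limma adjusted p = 0.0566) and 0.11 ± 0.18 in TIAR KO MEF (limma adjusted p = 0.820).

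**Figure D4:**
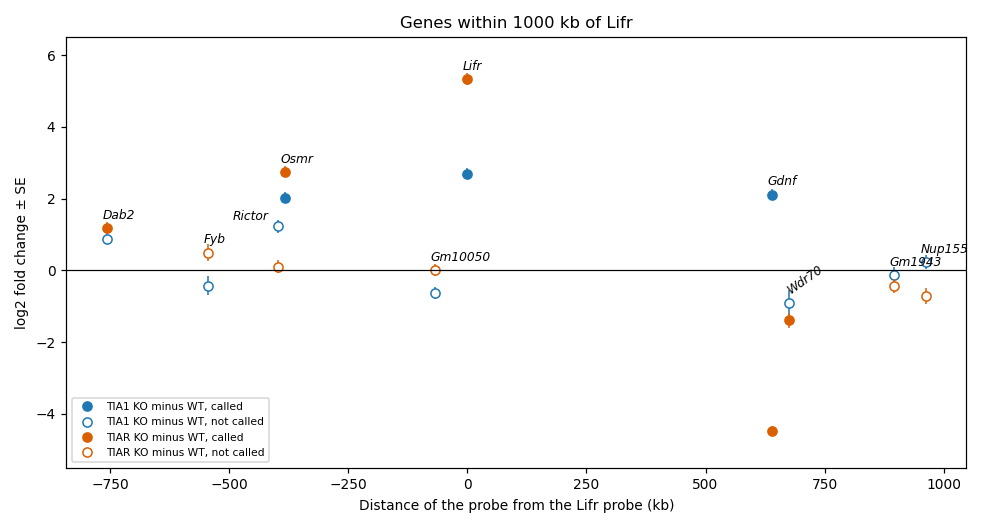
Log2 fold change with its standard error against WT MEF (y axis) of Lifr and of the 9 genes within 1000 kb of it, by distance of their probes from the Lifr probe (x axis, in kb). Blue marks TIA1 KO and orange TIAR KO MEF, and filled points were called. Osmr and Lifr are higher in both knockouts, while Gdnf lies at 2.11 and −4.47.

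The 5 genes whose values lay closest to Lifr were Wscd2, Fgf18, Gata6, Sned1 and Notch3, out of 18408 other genes that were well above background on every array of 1 group or more. Likeness was the root mean square difference between the 6 values of a gene and those of Lifr, each centred on its own mean. It was 0.195 for Wscd2 and Fgf18, 0.249 for the transcription factor Gata6, 0.254 for Sned1 and 0.263 for the receptor Notch3 on the log2 scale. Wscd2 read 8.00 and 7.68 in WT, 10.32 and 10.10 in TIA1 KO and 13.19 and 12.61 in TIAR KO MEF. Fgf18, a fibroblast growth factor, read 7.87 and 7.67, 10.03 and 10.02, and 13.11 and 12.77 in the same order. Both were thus lowest in WT and highest in TIAR KO MEF, with TIA1 KO between them. The 6 values share arrays and 3 group means, and no test was made of this likeness.

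The labelled cell type was compared with marker lists. Vim, Col1a1 and Col1a2, genes of mesenchymal cells, were well above background on all arrays, whereas Lum was so on none and Pdgfra on neither WT array. Of 10 fibroblast markers, 7 were called higher for TIA1 KO and 8 for TIAR KO, among them Pdgfra, at least 9.52-fold and at least 26.1-fold higher, and Col3a1. Beside these and the following marker counts stand 2.88% and 4.36% of all genes called higher, and 8.27% and 13.7% of those well above background called in either direction. The summed normalized intensity of the list was 322198 and 303777 in WT, 1084680 and 1042908 in TIA1 KO and 1091319 and 1081905 in TIAR KO MEF, with Vim as its brightest gene over the 6 arrays. Vim itself was not called, at 0.44 and 0.49 on the log2 scale for TIA1 KO and TIAR KO against WT MEF. In the same order, Thy1 lay at 0.49 and 7.98 and Dcn at 2.67 and 9.15. Against WT MEF, Thy1 was called for TIAR KO only. The summed intensity of the list was higher in both knockouts, as Lifr and Osmr were, and its part in their values was not tested. In these bulk samples, fewer cells of a type and less RNA per cell cannot be told apart.

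Of 4 mesothelial markers, Upk3b, Wt1 and Lrrn4 were called higher in TIAR KO MEF and Msln, the brightest, lower. Upk3b was not well above background on any WT or TIA1 KO array, and was at least 143-fold higher in TIAR KO than in WT MEF. The summed intensity of this list was 90773 and 56698 in WT, 241955 and 209334 in TIA1 KO and 44259 and 41454 in TIAR KO MEF. Of 6 epithelial markers, Krt8 was called higher in TIA1 KO, and Krt8, Krt18 and Cdh1 in TIAR KO MEF. Epcam, Krt5 and Krt14 were called in neither knockout. They lay at 0.43, −0.59 and −0.81 in TIA1 KO and at −0.11, −0.58 and −0.27 in TIAR KO against WT MEF. The list had sums of 1176 and 1080, 1297 and 1615, and 2543 and 2508 for the 3 groups, with Krt8 as the brightest. A dimmer Krt8 probe was not called in either knockout, at 0.36 and 0.98 on the log2 scale (limma adjusted p = 0.334 and 0.0224). Of 5 adipocyte markers, Pparg was called higher in both knockouts and Lpl in TIAR KO MEF, with sums of 1842 and 2197, 6823 and 7755, and 46144 and 45105, Fabp4 as the brightest by mean log2 intensity and Adipoq above background on no array. Lpl, at 15.36 and 15.32 on the log2 scale, made up most of the TIAR KO sums, and Pparg, at 12.27 and 12.43, most of those in TIA1 KO MEF. A dimmer Lpl probe was also called in TIA1 KO MEF, at least 2.42-fold higher. Of 6 macrophage and leukocyte markers, Itgam was called higher in TIA1 KO MEF, while Ptprc, Emr1 and Lyz2 were not well above background on any array. Both dimmer Itgam probes, not well above background in TIA1 KO MEF, lay at −0.53 and −0.78 there (limma adjusted p = 0.327 and 0.0903). The sums were 6734 and 4850, 15273 and 12732, and 8001 and 7804, with Itgam as the brightest. Limma called none of 5 endothelial markers at its brightest probe in any comparison, with 1, 1 and 0 at an unadjusted p under 0.05 (29.2%, 23.1% and 24.7% of all genes), while a dimmer Kdr probe was called in TIAR KO MEF, at least 2.33-fold higher than in WT MEF (limma adjusted p = 0.00708), and Cdh5 and Emcn were not well above background on any array. The part of these markers in the values of the family was not tested.

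**Figure D5:**
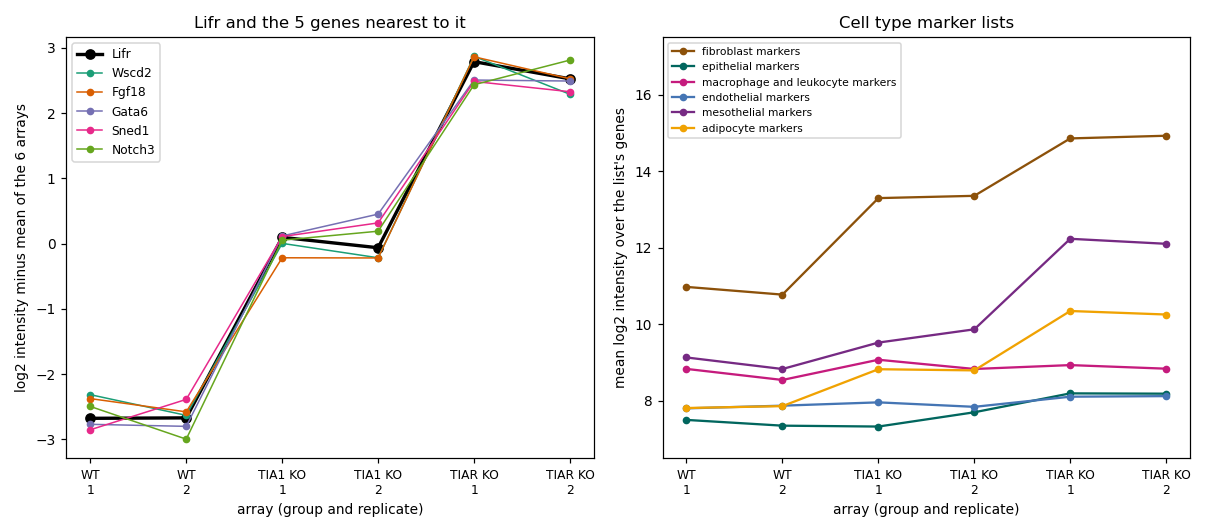
Left, log2 intensity minus its mean over the 6 arrays (y axis) for Lifr in black and the 5 genes nearest to it, by array (x axis). Right, mean log2 intensity (y axis) of each marker list by array. Lifr and the 5 genes step up from WT to TIA1 KO to TIAR KO MEF, and the fibroblast list is higher on all 4 KO arrays than on the WT arrays.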

How the data were processed

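Cy3-labelled total RNA of MEF was hybridized to 6 Agilent mouse arrays. The authors deposited spot intensity values from Agilent Feature Extraction, with probe positions in mm9, and a table of log2 values that they had background-corrected (normexp), loess- and quantile-normalized. From the deposited intensity values, normexp with offset 50, log2, loess against the mean array and quantile normalization were repeated in limma 3.58.1 (R 4.3.3). Control and outlier spots were left out, spots of a probe were averaged, and a gene was read from its brightest probe. Arrays limit the precision by their number, 2 per group.

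Each comparison was fitted with lmFit and eBayes on its 4 arrays, with Benjamini-Hochberg adjustment over 55681 probes, and was tested on simulated data. The family members and gene lists were chosen with earlier results of these data known. Named were all members, Jak1, Stat3 and Socs3, pathway genes called and well above background in the higher group, other probes that disagreed, and the 5 genes nearest to Lifr. 1 gene of the pathway lists is not reported here. Cebpb, Myc, Lcn2 and the neighbours of Lifr were named after their values were seen. Alternatives were the authors' log2 table, scanner-processed intensities, offset 16, other scaling, a filter on dim probes, all groups in 1 fit, an intensity trend, the mean of probes, a replicate block and leaving out each array. Promoters came from RefSeq (GRCm38.p6), whose positions cannot be set against mm9. The place of probes in exons or UTRs was not analysed here.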

Additional observations from a re-analysis of the deposited data

Results flagged for a closer look

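Among the members other than Lifr and the 46 other pathway genes, 5 passed the threshold in the direct comparison of the knockouts. Beside this count stand 4.18% of all genes called there in either direction, and 7.84% of those well above background. Lifr and the marker genes, some of which were also called there, are not counted, Lifr because its level led to the choice of the family. TIAR KO minus TIA1 KO was 2.21 on the log2 scale for Il6, −1.82 for Il11, 3.40 for Lbp, 1.54 for Socs2 and −1.30 for Arid5a. At their brightest probes, Il6 and Lbp were not well above background on either TIA1 KO array. Their values are therefore given as at least 3.07-fold and at least 6.04-fold higher in TIAR KO MEF. A dimmer Lbp probe differed by −0.38 between the knockouts (limma adjusted p = 0.788). Without TIAR KO replicate 1 or 2 the spread came from the TIA1 KO arrays alone and no probe of the array was called, so these fits say nothing of the 5 genes. Slide row and strain cannot be told apart from the genotype in this comparison.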

How the results depend on the processing

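Counts in this section are given as members and then other pathway genes called. The share of all genes called under each setting is not given beside them, so nothing about the family is read from these counts. In TIA1 KO against WT MEF they were 2 and 1, and became 0 and 0 with processed intensities scaled to the 75th percentile and 4 and 22 with scaling to a common median. Other pathway genes numbered 0 with offset 16, 2 with quantile normalization alone, 6 among probes well above background, 7 with all 3 groups fitted together, and 3 with an intensity trend or with the mean of probes. Leaving out 1 array gave 0 to 2 members and 0 to 13 other genes, the highest without TIA1 KO replicate 2 and 0 without either WT array. In TIAR KO against WT MEF the counts were 3 and 5. Other pathway genes numbered 3 with processed intensities and 8 with common-median scaling, and leaving out 1 array gave 3 to 4 members and 2 to 6 other genes. Between the knockouts the counts were 3 and 3, and became 0 and 0 with processed intensities and 7 and 12 with common-median scaling. Other pathway genes numbered 1 with the authors' table, offset 16 or the mean of probes, 8 among probes well above background, and 7 with all 3 groups fitted together or an intensity trend. Leaving out 1 array gave 0 to 4 members and 0 to 16 other genes, with 16 without TIA1 KO replicate 2 and 0 without either TIAR KO array. The cause of these shifts was not tested.

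Under common-median scaling in TIA1 KO MEF, Il6st turned to −1.48, Jak1 to −1.28 and Cebpd to −1.23, all called there, where the median of all probes shifted by −0.67. Processed intensities shifted it by 1.98 in TIA1 KO against WT MEF and by −1.85 between the knockouts.

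The samples share replicate numbers, but deviations of same-numbered samples correlated at 0.08, 0.03 and −0.07 over all probes, and at 0.28, 0.02 and −0.07 over 13729 probes well above background on every array. With 2 pairs each and no label that ties the numbers to a shared day or batch, they were not taken as pairs. With a replicate block the counts were 1 and 0 in TIA1 KO, 4 and 6 in TIAR KO, and 0 and 0 between the knockouts. Low signal limited Il6, which was not well above background on either TIA1 KO array.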
